A study of Mus musculus with 6 samples.

Results

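The contractile genes of vascular smooth muscle were examined as 10 genes of the count table, Acta2, Myh11, Tagln, Cnn1, Smtn, Lmod1, Actg2, Mylk, Myocd and Synpo2. They were chosen by gene symbol as genes known for this role. They are 10 of the 54532 genes listed, and all 10 were among the 14866 genes that passed the filter on low counts. The data were RNA-seq counts per gene from whole hearts of male mice aged 3 months on a C57BL/6 background, with 3 hearts of each genotype. The α1r/rα2s/s (resistant) hearts carried the rodent Na/K-ATPase α1, which binds cardiotonic steroids (CTS) weakly. The α1s/sα2s/s (sensitive) hearts carried an α1 with amino acid substitutions that raise its affinity for CTS. Both genotypes carried the CTS-sensitive α2, and the alleles are germline ones, carried by every cell of the heart and its vessels. Counts per gene do not show these substitutions, so hearts are grouped by their labelled genotype. The question for these genes was whether their RNA differed between the hearts of the genotypes.

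The total count per heart was 19710942 to 20240817 in resistant hearts and 19309312 to 20470065 in sensitive hearts, and the 10 genes together took 9036 to 10846 and 8825 to 9888 of these counts. Mitochondrially encoded genes took 23.4% to 24.4% of the counts in resistant hearts and 25.0% to 26.0% in sensitive hearts, with no overlap. The sensitive hearts were therefore higher in this share (two-sided exact permutation p = 0.1, the least that 3 against 3 hearts can reach), and its part in the results below was not tested. The spread between hearts of a genotype, as edgeR's biological coefficient of variation, was 11.1%. A whole heart is mostly cardiomyocyte RNA, and in such bulk tissue fewer cells of a type and less RNA per cell cannot be told apart.

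Smooth muscle contracts when calcium and calmodulin activate myosin light chain kinase, which phosphorylates the light chain of smooth muscle myosin and lets it pull on actin filaments. The genes of this apparatus are switched on together by serum response factor, which binds a DNA element called the CArG box, and by its coactivator myocardin. In the heart this program is a property of the muscle layer of coronary arteries and veins. Myocardin, smoothelin and synaptopodin-2 are also made in cardiomyocytes, so their RNA in a whole heart is not specific to vessels.

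Promoter sequence was available here for 6 of the 10 genes, and the windows of Acta2 and Cnn1 are shown because these were the genes with an unadjusted p under 0.05. They are RefSeq windows on GRCm38.p6 that run from 250 bases before to 50 bases after the annotated start, written 5′ to 3′ on the gene's own strand. Capitals mark matches to the CArG box with 1 mismatch in its A and T core. The Acta2 window is on the minus strand at chr19:34255324-34255623, and the Cnn1 window on the plus strand at chr9:22099003-22099302.
Acta2 promoter: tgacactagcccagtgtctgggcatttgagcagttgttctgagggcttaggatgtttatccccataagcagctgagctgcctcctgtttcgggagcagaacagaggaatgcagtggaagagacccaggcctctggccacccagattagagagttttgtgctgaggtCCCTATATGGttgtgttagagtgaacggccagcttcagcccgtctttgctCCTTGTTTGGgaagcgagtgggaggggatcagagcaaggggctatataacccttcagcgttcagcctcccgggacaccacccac
Cnn1 promoter: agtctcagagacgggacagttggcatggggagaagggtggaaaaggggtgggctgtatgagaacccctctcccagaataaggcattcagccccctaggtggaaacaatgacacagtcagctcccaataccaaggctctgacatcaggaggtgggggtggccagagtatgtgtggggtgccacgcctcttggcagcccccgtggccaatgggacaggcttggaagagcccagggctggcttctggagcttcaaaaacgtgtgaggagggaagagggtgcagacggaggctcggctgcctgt
The Acta2 window held no exact CArG box and 2 elements with 1 core mismatch, CCCTATATGG starting 84 bases and CCTTGTTTGG starting 34 bases upstream of the annotated start. The Cnn1 window held neither an exact match nor one with 1 core mismatch, and the same was true of Smtn, Lmod1, Mylk and Synpo2. The Smtn and Mylk windows, at chr11:3539243-3539542 and chr16:34784700-34784999, lie inside these genes as the count table places them. The outermost 5′ ends of both genes were not searched. Over all 32851 promoters of this table, 1.63% held an exact CArG box and 9.98% held at least one with up to 1 core mismatch, on either strand. A match in these letters is not a measured binding site, and elements outside the window were not searched.

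By the quasi-likelihood test of edgeR, no member of the group passed an adjusted p of 0.05 (0 of 10, where 1.44% of all tested genes did). At an unadjusted p under 0.05 there were 2, Acta2 and Cnn1, both lower in sensitive hearts, beside 14.5% of all tested genes and 7.27% in the lower direction. DESeq2 called Acta2 alone of the 8 members to which it gave an adjusted p, beside 3.56% of the 11244 genes given one. Acta2 was also the only one of the 10 at an unadjusted p under 0.05 in DESeq2. This share was 6.87% over 28182 genes, which were not put through the filter on low counts. For no member were the hearts of one genotype all on one side of those of the other, whereas 20.0% of all tested genes had no such overlap and 9.98% had none with the sensitive hearts lower. The estimate was lower in sensitive hearts for 7 members and higher for 3, beside 51.6% of all genes with a lower estimate. The median log2 fold change (sensitive over resistant) was -0.10 over the 10 members and -0.01 over all tested genes.

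**Figure D1:**
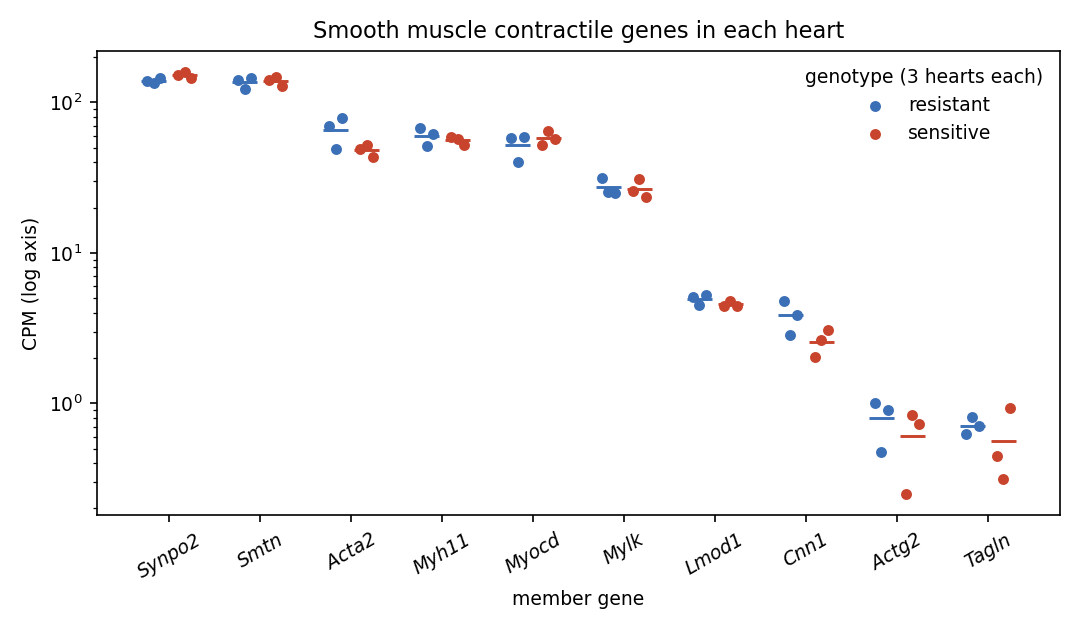
CPM (counts scaled to library size, normalized by TMM, log axis) of the 10 contractile genes in each of the 3 resistant and 3 sensitive hearts, with a bar at each mean. The points of the genotypes overlap for every gene, and the levels run from below 1 CPM for Tagln and Actg2 to over 100 CPM for Synpo2 and Smtn.

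Acta2, an actin, had the smallest p of the group. Acta2 (ENSMUSG00000035783, chr19:34241090-34255336, minus strand) encodes smooth muscle α-actin, the main actin of the arterial wall. It had 70.1, 49.1 and 78.7 CPM in resistant hearts 1, 2 and 3, and 48.7, 52.2 and 43.6 CPM in sensitive hearts. Resistant hearts 1 and 3 were above every sensitive heart, while resistant heart 2 lay inside the sensitive range. The mean was 66.0 ± 15.2 CPM in resistant and 48.2 ± 4.36 CPM in sensitive hearts (SD, n = 3), so that the sensitive mean was 73.0% of the resistant one. The log2 fold change was -0.45 (standard error 0.13, 95% interval -0.74 to -0.17), with an adjusted p of 0.118 in edgeR. The adjusted p was 0.0345 in DESeq2 and 9.05e-05 when edgeR tested every gene with a count. It was 0.308 with edgeR's robust prior. Without resistant heart 2 the log2 fold change was -0.62 (adjusted p = 0.00498 in edgeR), and without resistant heart 3 it was -0.30 (adjusted p = 0.288). The call on Acta2 thus depended on the test, the filter on low counts and resistant heart 2. The estimate was lower in sensitive hearts in 13 of 13 alternatives.

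Actg2 (chr6:83512905-83536265, minus strand) encodes smooth muscle γ-actin, the main contractile actin of gut and bladder. It had 21, 10 and 18 counts in resistant hearts and 5, 16 and 14 in sensitive hearts, a level at which counting error alone is large. Its log2 fold change was -0.39 with a 95% interval from -1.53 to 0.74 (adjusted p = 0.785 in edgeR) and DESeq2 gave it no adjusted p. A log2 fold change of -1 was inside that interval. Without sensitive heart 1 the estimate was -0.02.

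Of the myosin and its kinase, neither moved by more than the spread between hearts. Myh11 (chr16:14194535-14291372, minus strand) encodes smooth muscle myosin heavy chain, the most specific marker of the lineage. It had 67.3, 51.0 and 61.3 CPM in resistant and 59.0, 56.8 and 52.0 CPM in sensitive hearts, and all sensitive hearts lay inside the resistant range. The log2 fold change was -0.10 (95% interval -0.30 to 0.11, adjusted p = 0.691 in edgeR). It was -0.00 without resistant heart 1 and -0.20 without resistant heart 2 (adjusted p = 0.433 in edgeR). Mylk (chr16:34745210-35002420, plus strand) encodes the myosin light chain kinase that starts contraction. Its values were 31.7, 25.6 and 25.0 CPM in resistant and 25.7, 30.9 and 23.5 CPM in sensitive hearts. The genotypes overlapped almost fully, with a log2 fold change of -0.04 (95% interval -0.29 to 0.22, adjusted p = 0.923 in edgeR).

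Acta2 and Myh11 are both contractile genes of smooth muscle, though whether their RNA came from the same cells here was not tested. The counts of Acta2 were divided by those of Myh11 in each heart. This ratio was chosen after the values were seen and is given as a description. It was 1.04, 0.963 and 1.28 in resistant hearts and 0.826, 0.919 and 0.837 in sensitive hearts. Every resistant heart had more Acta2 than the sensitive hearts relative to Myh11, heart 2 included, by means of 1.10 ± 0.167 against 0.861 ± 0.051 (SD, n = 3). Set against Actc1, the cardiac actin of cardiomyocytes, Acta2 had 9.18 to 14.6 counts per 1000 in resistant and 9.32 to 11.2 in sensitive hearts, which overlapped.

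Among the proteins that bind the actin filament, Cnn1 (chr9:22099216-22109630, plus strand) encodes calponin 1, an inhibitor of the actin-activated myosin ATPase found in differentiated smooth muscle. It had 4.82, 2.87 and 3.87 CPM in resistant hearts and 2.04, 2.63 and 3.06 CPM in sensitive hearts, from 60 to 101 and 41 to 59 counts. As for Acta2, resistant hearts 1 and 3 were above all sensitive hearts and resistant heart 2 was not. The mean was 3.85 ± 0.978 and 2.58 ± 0.515 CPM (SD, n = 3), a sensitive mean at 66.9% of the resistant one. The log2 fold change was -0.58 (standard error 0.27, 95% interval -1.16 to -0.00), with an adjusted p of 0.342 in edgeR. In DESeq2 the adjusted p was 0.41, and no alternative called the gene. The estimate was lower in 13 of 13 alternatives, at -0.38 without resistant heart 1 and -0.75 without resistant heart 2.

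Smtn (chr11:3517523-3540612, minus strand) encodes smoothelin, a protein of the contractile filaments. Its 141, 124 and 146 CPM in resistant and 141, 148 and 128 CPM in sensitive hearts gave a log2 fold change of 0.02 (95% interval -0.15 to 0.19, adjusted p = 0.937 in edgeR), among the narrowest intervals of the group. Lmod1 (chr1:135324807-135368065, plus strand) encodes leiomodin 1, which nucleates actin filaments in smooth muscle. It had 5.06, 4.49 and 5.22 CPM in resistant and 4.47, 4.79 and 4.41 CPM in sensitive hearts. The log2 fold change was -0.11 (95% interval -0.52 to 0.29, adjusted p = 0.839 in edgeR), and the genotypes overlapped.

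Myocd and Synpo2, both also made by cardiomyocytes, had the largest positive log2 fold changes of the group. Myocd (chr11:65176561-65269989, minus strand), the coactivator of the whole program, had 58.1, 40.0 and 58.8 CPM in resistant and 51.9, 64.4 and 57.2 CPM in sensitive hearts. The log2 fold change was 0.15 (95% interval -0.12 to 0.41, adjusted p = 0.64 in edgeR), and it was -0.01 without resistant heart 2. Synpo2 (chr3:123076519-123236149, minus strand) encodes synaptopodin-2, or myopodin, an actin-bundling protein of smooth muscle dense bodies and of Z-discs. It had 138, 134 and 145 CPM in resistant and 152, 160 and 144 CPM in sensitive hearts, where only sensitive heart 3 lay inside the resistant range. The log2 fold change was 0.13 (95% interval -0.02 to 0.28), with an adjusted p of 0.41 in edgeR.

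Levels between genes were compared as CPM per kilobase of the gene length in the count table, over all 6 hearts. Acta2 was highest at 32.0 (24.5 to 44.2), and Smtn followed at 31.5 (28.2 to 33.7), a difference within the spread between hearts. Synpo2 had 11.1, Myocd 8.57, Myh11 7.62 and Mylk 2.40 CPM per kilobase. Lmod1 and Cnn1 had 1.20 and 1.17, and Actg2 and Tagln were lowest at 0.45 and 0.32. Neighbours in this order whose ranges overlapped were Acta2 with Smtn, Myocd with Myh11, Lmod1 with Cnn1 and Actg2 with Tagln. The main cardiac actin and myosin genes, Actc1 and Myh6, had 3109 and 3613 CPM per kilobase. Other striated relatives lay on both sides of Acta2. Lmod2 (332), Mylk3 (173), Acta1 (144), Lmod3 (48.3) and Myh7 (35.5) were above it. Mylk4 (23.8), Synpo2l (24.3) and Mylk2 (0.043) were among those below it. The order at the top depends on the length used, since the annotated exons of Acta2 span 2196 bases against the 1781 of the count table. With all counts divided by the annotated exon bases shared with no other gene, Smtn had 37.6 and Acta2 26.0 CPM per kilobase. The value of Smtn holds only if no read from its shared bases was counted.

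Tagln, which encodes transgelin (SM22α) and is commonly among the abundant transcripts of smooth muscle, was the lowest member per kilobase of the length in the count table. With all its counts divided by only the exon bases that no other gene shares, it had 1.0 CPM per kilobase, above Actg2 (0.45). That value holds only if no read from the shared bases was counted, which is not known here. The rank of Tagln thus depends on the length used. It had 13, 17 and 14 counts in resistant and 9, 6 and 18 in sensitive hearts, and its log2 fold change was -0.33 with a 95% interval from -1.42 to 0.76 (adjusted p = 0.82 in edgeR). DESeq2 gave no adjusted p. Without sensitive heart 3 the estimate was -0.89, and without sensitive heart 2 it was -0.04. The exons of Tagln overlap those of other genes. Tagln lies on the minus strand of GRCm38 at chr9:45929619-45936058, and 1349 of its 1988 exon bases (67.9%) are also exons of genes on the opposite strand. The antisense gene Gm48529 covers 1241 of these bases and had 6 to 18 counts per heart, and the last exon of Pcsk7, a proprotein convertase gene with 369 to 429 counts, covers 108. Only 639 exon bases of Tagln are shared with no other gene. Whether the counting used strand is not given in the sources used here. Without it, reads from the shared bases cannot be assigned to either gene, so the counts of Tagln are uncertain as a measure of its RNA.

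**Figure D2:**
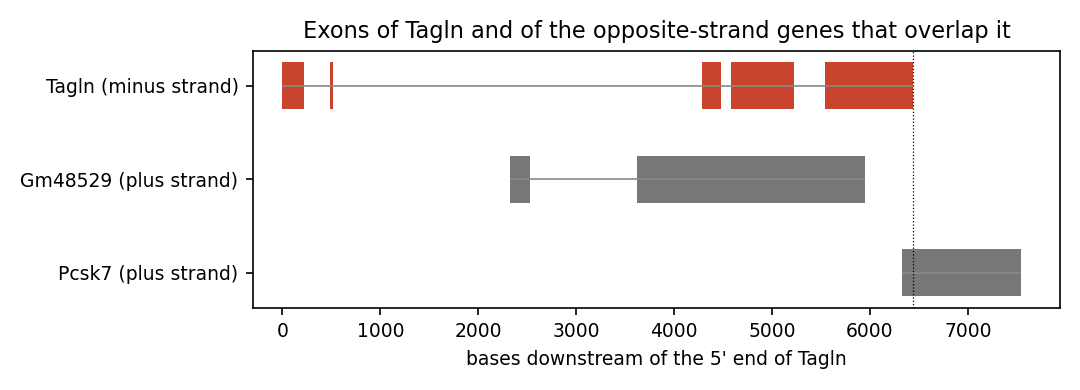
Exons (boxes) of Tagln and of the opposite-strand genes Gm48529 and Pcsk7, drawn to scale by the distance in bases from the 5′ end of Tagln, with a dotted line at its 3′ end. The long exon of Gm48529 covers the middle exons of Tagln, and together with the last exon of Pcsk7 it overlaps 67.9% of the exon bases of Tagln.

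Over the 21938 annotated protein-coding genes found in the table, levels were compared by the share of exon bases overlapped on the opposite strand, without an even trend. The 78 genes with over 80% of their exon bases overlapped had a median of 0 CPM per kilobase, and 6.41% of them exceeded 1. The 137 genes with over 50% and up to 80%, the class of Tagln, had a median of 0.297, and 37.2% exceeded 1. In the 804 genes with over 20% and up to 50% it was 1.28 (54.0% above 1), and in the 4263 genes with up to 20% it was 2.36 (64.4% above 1). The 16656 genes with no overlap had a median of 0.351 (42.7% above 1). The class of Tagln thus had about the median of genes with no overlap, and whether the overlap had a part in the counts of Tagln was not tested. Of the other members, Smtn shared 16.3% and Mylk 6.85% of its exon bases with opposite-strand genes, and the remaining 7 shared none. Reads of 100 bases from Acta2, Myh11, Cnn1, Lmod1, Actg2, Myocd or Synpo2 would match no annotated transcript of another gene exactly.

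Most members tended to move together from heart to heart. The 8 members with at least 10 counts in every heart and the genotype mean removed had positive Pearson correlations of log2 CPM in 28 of 28 pairs over the 6 hearts, with a median r of 0.68, and in 25 of 28 pairs (median r of 0.52) without removing it. These points share the scaling of each library, and the correlations are a description. The share of positive pairs among other genes was not taken, so whether this is particular to the members is not known. Resistant heart 2 was the clearest case, where all 8 members were below the mean of their genotype and 7 of 8 were the lowest of the 3 resistant hearts. Among sensitive hearts, heart 3 was the lowest for 6 of 8 members. In resistant heart 2 Acta2 was 0.40, Cnn1 0.38 and Myocd 0.36 below the genotype mean on the log2 scale, while Synpo2 was 0.05 below.

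**Figure D3:**
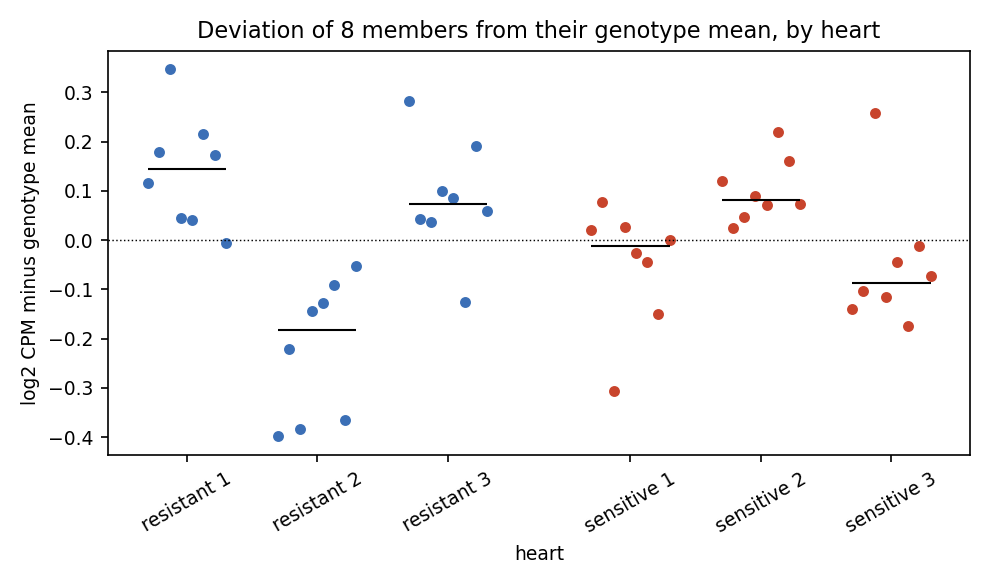
Deviation of log2 CPM from the genotype mean for 8 contractile genes (points) in each heart, with a bar at the median of the 8. All 8 points lie below 0 in resistant heart 2, where Acta2, Cnn1 and Myocd were lowest.

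Markers of other tissue parts also set resistant heart 2 apart. Summed over 8 atrial marker genes, it had 303 CPM, beside 240 and 201 CPM in the other resistant hearts and 188 to 213 CPM in the sensitive hearts. Bmp10, a growth factor of the atrium, had 155 counts in resistant heart 2 and 19 and 0 in the other resistant hearts, and 43, 8 and 0 in sensitive hearts. The 8 markers of large vessels, such as elastin and matrix Gla protein, summed to 568 CPM in resistant heart 2 against 515 and 466 CPM in the others, the opposite order to the contractile genes. The 12 cardiomyocyte markers summed to 58014 CPM in resistant heart 2, against 62987 and 72676 CPM in the other resistant hearts. The 23 partners of the contractile apparatus summed to 10877 CPM there, of which 7051 CPM came from the tropomyosin gene Tpm1. Both sums were the lowest of the 6 hearts. Fibroblast and endothelial markers had their highest resistant sums in this heart, at 2638 and 1923 CPM. Whether the dissected parts of the heart had a role in the low contractile genes of this heart was not tested.

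The spread of single members between hearts of a genotype was also compared with the 1000 tested genes nearest in level. The pooled SD of log2 CPM was 0.27 for Acta2, above 98.3% of such genes, and 0.25 for Myocd, above 97.9%. Myh11 (0.16) was above 90.4% and Mylk (0.19) above 87.5%. Lmod1 and Synpo2 were steady, above 3.0% and 30.8% of genes of like level, and 7 of the 10 members were above the median. Most of the spread of Acta2 came from the resistant hearts, whose SD was 15.2 CPM against 4.36 CPM in sensitive hearts.

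The partners of the contractile apparatus, 23 genes for light chains, tropomyosins, filament anchors, phosphatase subunits, kinases and channels, were tested in the same fit. Of the 23, 1 passed in edgeR, 6 had an unadjusted p under 0.05 and 7 had no overlap between the genotypes. Over all tested genes these shares were 1.44%, 14.5% and 20.0%. In direction, 12 of the 23 were lower and 11 higher in sensitive hearts. Their median log2 fold change was -0.01, as over all genes. Their sum was 10877 to 11836 CPM in resistant and 11611 to 12709 CPM in sensitive hearts, and most of it came from Tpm1. Flna, which encodes the actin crosslinker filamin A, fell from 184 ± 7.99 to 144 ± 10.6 CPM (SD, n = 3), at -0.35 on the log2 scale (adjusted p = 0.0289 in edgeR). DESeq2 called 3, among them Des, which was higher in sensitive hearts. Des, the intermediate filament desmin shared by all muscle, had a log2 fold change of 0.31, with an adjusted p of 0.1 in edgeR and 0.00426 in DESeq2.

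Of 24 symbols listed for regulators of the smooth muscle program, 22 were in the count table, since Mkl1 and Mkl2 were listed under both older and newer symbols. Of the 22, 20 were tested, with a median log2 fold change of -0.06. Of these, 3 passed in edgeR, beside 1.44% of all tested genes. This list, like the others, was written with earlier results of these data known, so these shares are a description alone. The 3 were transcription regulators that cardiomyocytes also use. Hand2, a basic helix-loop-helix factor of heart and vessel development, rose from 32.3 ± 3.51 to 61.1 ± 8.63 CPM (SD, n = 3), by 0.92 on the log2 scale (adjusted p = 0.000626 in edgeR). Nkx2-5, a cardiac homeobox factor, rose from 42.8 ± 1.5 to 55.2 ± 1.36 CPM (SD, n = 3; adjusted p = 0.0276 in edgeR). Fhl2, a LIM protein that binds serum response factor, fell from 1289.7 ± 85.4 to 1013 ± 93.6 CPM (SD, n = 3; adjusted p = 0.0493 in edgeR), and DESeq2 also called these 3. Srf, the factor that binds the CArG box, had 66.2 to 78.3 CPM in resistant and 62.9 to 71.1 CPM in sensitive hearts, which overlapped. The sum over the list was 2135 to 2347 CPM in resistant and 1954 to 2077 CPM in sensitive hearts, without overlap, and Fhl2 was the most abundant of its genes. The myocardin relatives Mkl1 and Mkl2 had estimates of 0.07 and 0.20 on the log2 scale (edgeR, adjusted p = 0.877 and 0.428).

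Relatives of the members serve the cytoskeleton of other cells or striated muscle. Of 26 symbols listed for such genes, 24 were in the count table, since Mkl1 and Mkl2 were listed under both older and newer symbols. Of these, 21 were tested and 7 passed in edgeR, with 6 lower in sensitive hearts, beside 0.659% of all tested genes called lower. The list was written with earlier results known, so these shares are a description. The difference from 0 of 10 members was not tested. The median log2 fold change of the 21 was 0.03, with 10 of 21 estimates lower. The falls were in genes of the non-muscle cytoskeleton and in kinase and leiomodin genes of striated muscle. Cnn2, a calponin of non-muscle cells, fell from 35.4 ± 2.90 to 23.2 ± 1.23 CPM (SD, n = 3), at -0.61 on the log2 scale (adjusted p = 0.00546 in edgeR). Myh9, non-muscle myosin IIA, fell from 193 ± 9.52 to 139 ± 11.9 CPM (-0.48 on the log2 scale, adjusted p = 0.00594 in edgeR). The cytoplasmic actins Actg1 and Actb fell as well, with -0.48 and -0.46 (edgeR, adjusted p = 0.00701 and 0.0216). Mylk4 fell with -0.55 and Lmod3 with -0.39 (edgeR, adjusted p = 0.00594 and 0.0302), a kinase and an actin nucleator of striated muscle. Synpo, which encodes synaptopodin, rose by 0.37 (adjusted p = 0.0307 in edgeR). Acta1, the skeletal actin, had 182 ± 31.1 and 261 ± 46.9 CPM and an adjusted p of 0.0548 in edgeR. DESeq2 called 7 genes of this list.

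**Figure D4:**
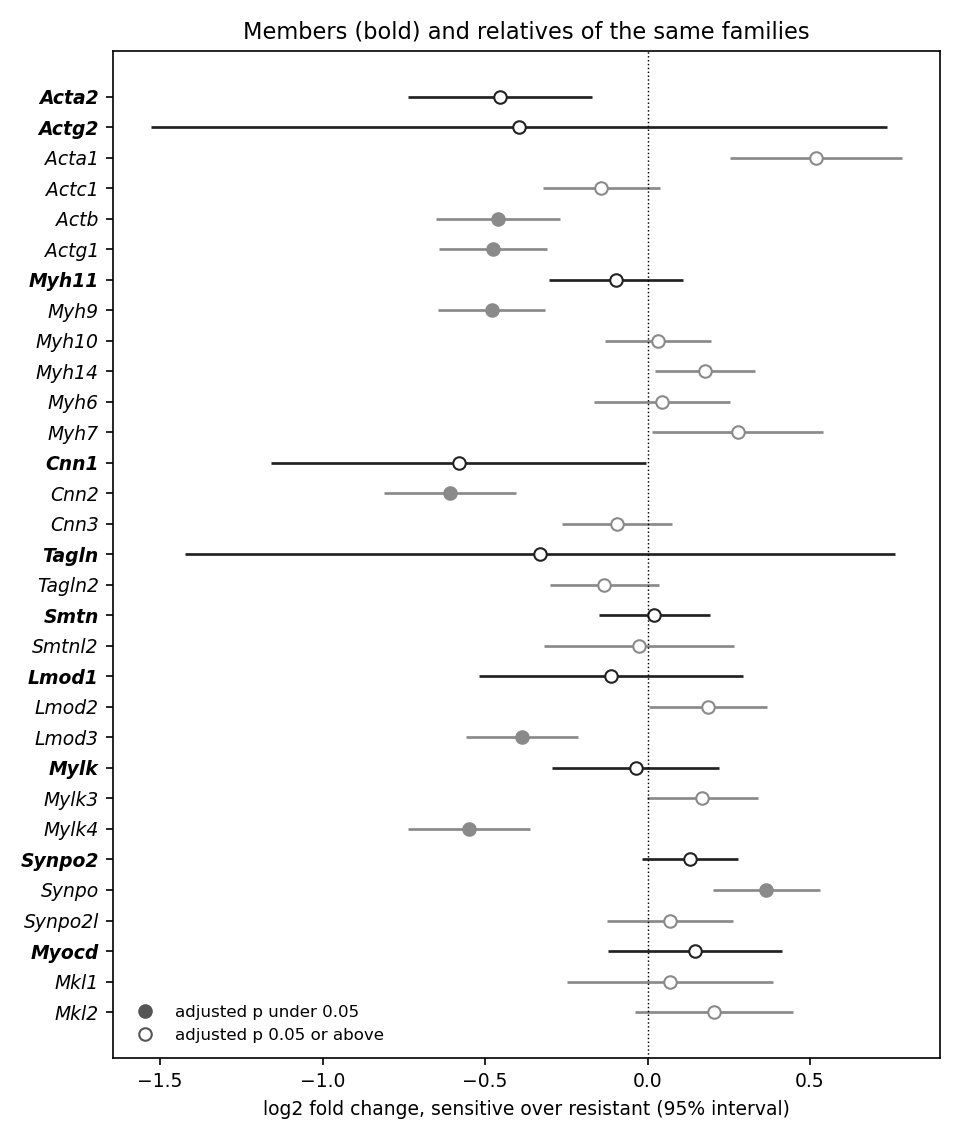
Log2 fold change (sensitive over resistant, 3 hearts each) with its 95% interval for the contractile genes (bold, black) and relatives of the same families (grey), filled where the adjusted p in edgeR was under 0.05. The 7 filled points are relatives, 6 below 0 and Synpo above 0, and the estimates of Acta2 and Cnn1 lie beside those of Actb, Actg1 and Cnn2.

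The estimates of Acta2 and Cnn1 were of like size to the falls of their called relatives, but with wider intervals. The log2 ratio of each member to a relative was taken in every heart for 8 pairs that were chosen after the values were seen, mostly with relatives that had passed in edgeR, so the ratios are given with no test and restate those calls in part. The log2 ratio of Acta2 to Actb was higher in sensitive hearts by 0.04 and that of Acta2 to Actg1 by 0.05, and for Cnn1 to Cnn2 the difference was 0.05, all with overlap. For Tagln to Tagln2 it was -0.26 and for Synpo2 to Synpo -0.23, also with overlap. Mylk to Mylk4 was 0.50 higher with overlap, and Myh11 to Myh9 was 0.39 and Lmod1 to Lmod3 0.27 higher without it.

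Other vascular smooth muscle markers gave 1 call in 14 tested genes, with a median log2 fold change of -0.07. It was Casq2, a calsequestrin that cardiomyocytes also make, which fell from 828 ± 31.9 to 617 ± 6.06 CPM (SD, n = 3; adjusted p = 0.0057 in edgeR). The sum of the 15 listed genes was 2836 to 3203 CPM in resistant and 2783 to 2835 CPM in sensitive hearts, and most of it came from Pln, Casq2 and Sorbs2, which cardiomyocytes also make. Pericytes, the mural cells of capillaries, contain little of the contractile apparatus. Of their 12 markers, 11 had a lower estimate in sensitive hearts and 1 passed in edgeR, with a median of -0.12. Over all tested genes, 51.6% had a lower estimate and 1.44% passed. Mcam, an adhesion molecule that smooth muscle also carries, fell from 45.8 ± 2.26 to 34.9 ± 0.744 CPM (SD, n = 3), at -0.39 on the log2 scale (adjusted p = 0.0276 in edgeR). The estimates of Vtn and Cspg4 were -0.55 and -0.46 (edgeR, adjusted p = 0.0665 and 0.0969), and DESeq2 called Vtn as well (adjusted p = 0.023). Summed, the pericyte markers had 1427 to 1509 CPM in resistant and 1285 to 1451 CPM in sensitive hearts. Of this list none was at 0. Rgs5, its most abundant gene, had 750 ± 37.2 and 749 ± 51.0 CPM (SD, n = 3), a log2 fold change near 0 (95% interval -0.16 to 0.16). Acta2 counts per 1000 Rgs5 counts were 63.6 to 111 in resistant and 61.9 to 67.8 in sensitive hearts and overlapped.

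Markers of the remaining cell types were read for what else in the tissue moved with the genotype. Over all tested genes, 1.44% passed in edgeR and 14.5% had an unadjusted p under 0.05. The 8 large vessel markers gave no call in edgeR or DESeq2 and none at an unadjusted p under 0.05, with a median of -0.04 and sums of 466 to 568 CPM in resistant and 467 to 506 CPM in sensitive hearts. The 12 fibroblast markers gave no call in edgeR, 5 at an unadjusted p under 0.05 and 1 in DESeq2 (Col1a1), with a median of -0.11 and sums of 2283 to 2638 and 2307 to 2683 CPM. Of 9 tested myofibroblast markers, Fn1, which encodes fibronectin, fell from 70.0 ± 7.77 to 50.4 ± 4.52 CPM (SD, n = 3; adjusted p = 0.0222 in edgeR), and the median was -0.18 with sums of 185 to 231 and 174 to 191 CPM. Of the 12 endothelial markers, Fabp4, a fatty acid binding protein, rose from 380 ± 43.4 to 497 ± 29.4 CPM (SD, n = 3; adjusted p = 0.0358 in edgeR), and the median was -0.04 with sums of 1626 to 1923 and 1635 to 1905 CPM.

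The 12 cardiomyocyte markers gave no call in edgeR or DESeq2 and none at an unadjusted p under 0.05, with a median of 0.09, 10 of 12 estimates higher and sums of 58014 to 72676 and 64764 to 70302 CPM. The 8 atrial markers gave no call in edgeR and 1 in DESeq2 (Myl7). In edgeR, 5 had an unadjusted p under 0.05, beside 14.5% of all tested genes. Their estimates were lower for 7 of 8, beside 51.6% of all tested genes, with a median of -0.51. Resistant heart 2 stood out here too, with a mean log2 deviation of these markers of 0.88 against 0.15 and -0.40 in the other resistant hearts. Of 4 tested adipocyte markers none passed in edgeR or DESeq2 and 1 had an unadjusted p under 0.05 (Plin1), with a median of 0.71, sums of 19.7 to 22.2 and 19.5 to 24.6 CPM, and Ucp1 at 0 in every heart. None of the 7 airway and lung markers passed the filter, with sums of 0.287 to 0.764 CPM in resistant and 0.778 to 1.39 CPM in sensitive hearts and Sftpd at 0 in every heart. The part of these cell types in the estimates of the contractile genes was not tested.

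The genes whose log2 CPM over the 6 hearts was most like the mean of the 10 members were Cenpa, Zfp458, Fam120c, Spcs3 and Nr6a1, each with a Pearson r of at least 0.98 among the 12100 genes whose log2 CPM averaged 1 or more. Cenpa encodes the histone variant of centromeres, Spcs3 a signal peptidase subunit and Nr6a1 a nuclear receptor. None of the 5 passed in edgeR, and r exceeded 0.95 for 20 of the 12100 genes. The mean of the 10 members was lowest in sensitive heart 1, where Actg2 had 5 counts, so low counts enter this pattern, unlike that of the 8 members described above. With 6 hearts and this many candidates, such values are a description of the pattern alone.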

How the data were processed

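RNA-seq counts per gene from 6 hearts were used, 3 of each genotype. Per the labels, total RNA of heart tissue was sequenced on an Illumina NovaSeq system, and the submitters' processing notes name fastp, STAR, featureCounts and the mm10 (GRCm38) build. Their versions, the annotation release and the strand setting are not given in the sources used here. The authors deposited the counts without normalization, with a gene length and position for each gene. They also deposited a table of their own DESeq2 comparison of the genotypes, with fold changes and p-values, which was not used.

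Counts were analysed in R 4.3.3 with edgeR 4.0.16. Genes were filtered by filterByExpr at a count of 10 and a total of 15 and scaled by TMM. The quasi-likelihood test had genotype as its term, and its p-values were adjusted by Benjamini-Hochberg over all 14866 genes and called under 0.05. Standard errors are the size of the log2 fold change divided by the root of F, and intervals are at 95%. DESeq2 1.42.0 was an alternative, beside upper-quartile or RLE factors, no filter on low counts, a minimum of 10 counts per heart, removal of mitochondrial and globin genes, a robust prior and removal of each heart. Log2 CPM used a prior count of 2. Between hearts of a genotype the chi-square per gene was 6.85 to 13.1, above the value near 1 that counting error gives, so each heart was 1 replicate. The p-values of edgeR and DESeq2 set the genotype difference against the spread between these hearts, estimated with information shared over genes. Positions are those of the count table, and exon overlaps, exact matches of 50 or 100 bases and strands come from GENCODE M21, where 9 of the 10 genes have identical coordinates and Acta2 does not. Promoters were matched by symbol to a RefSeq table. The procedures were tested on simulated counts.

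The members and the 13 lists of partners, regulators, relatives and markers were chosen with earlier results of these data known. Genes named were every member, in each list those called or else at most the 3 with the smallest p, the members' relatives, and the 5 genes closest to the members' mean. Srf and Rgs5 were named for their role, and Tpm1, Bmp10 and genes that only DESeq2 called were named after their values were seen. The ratios between genes were also chosen after the values were seen. Some single genes are not reported here.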

Additional observations from a re-analysis of the deposited data

How the results depend on the processing

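The number of members called was 0 in edgeR with TMM, RLE or upper-quartile factors, with at least 10 counts in every heart (8 members tested), without mitochondrial and globin genes, and with the robust prior. It was 1, Acta2, in DESeq2 and without a filter, and 0 to 1 when each heart was left out, with Acta2 called without resistant heart 2. Over all genes the calls were 214, and they were 400 in DESeq2, 618 without a filter and 80 to 158 when each heart was left out, where fewer hearts enter the test. The cause of the other changes was not tested. Of 128 results of single members under the alternatives, 120 kept their direction with no call gained or lost, counting Tagln and Actg2 in DESeq2, which gave them no adjusted p, 3 (Acta2) passed the threshold and 5 changed sign. These 5 came from leaving out a heart, which moved the log2 fold change of Smtn from -0.045 to 0.077, of Mylk from -0.15 to 0.083 and of Myocd from -0.012 to 0.24. The median log2 fold change of the members ran from -0.18 to -0.05 when each heart was left out and from -0.12 to -0.07 under the other settings. The count of members with a spread above the median of genes of like level was 7 by SD and by coefficient of variation. DESeq2 called 3 contractile partners, 2 pericyte markers, 1 fibroblast and 1 atrial marker, where edgeR called 1, 1, 0 and 0. Tagln and Actg2, with 5 to 21 counts per heart, are limited by depth. Whether the overlap of Tagln with other genes had a part in its counts was not tested. No paired analysis was possible because the mouse numbers differ between the genotypes and pair no hearts.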
